A study of Mus musculus with 12 samples.

Results

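Imprinted growth genes are expressed mainly from one parental copy and set the pace of fetal and early postnatal growth. The 10 followed here were Igf2, H19, Igf2r, Dlk1, Meg3, Peg3, Mest, Plagl1, Cdkn1c and Grb10. A gene was taken as measured where at least 1 probe set of the array carried its symbol and no other, and in each tissue the probe set with the highest mean over the 6 arrays of that tissue stood for the gene. By this rule 7 of the 10 were measured, among 17097 measured genes in all: Igf2, Dlk1, Meg3, Peg3, Plagl1, Cdkn1c and Grb10. In the annotation used, no probe set was named for H19, the 1 named for Igf2r was shared with Airn and the 1 for Mest with Copg2, so no value is given for these 3. That annotation left 15588 probe sets of the array without a gene name, and probe sets of these 3 genes may be among them.

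Expression was measured on 12 Affymetrix mouse arrays of C57BL/6 tissue, 6 of lung and 6 of liver. Abcb11 encodes the bile salt export pump of the hepatocyte canalicular membrane, and mothers that lack it are cholestatic. The lungs came from offspring that were all Abcb11+/-, taken at embryonic day 17.5 (E17.5), embryonic day 18.5 (E18.5) and neonatal day 0 (PN0), with 1 array from an Abcb11-/- mother crossed with a wild-type male and 1 array from a wild-type (WT) mother crossed with an Abcb11-/- male at each stage. The livers came from adult mice aged 1.5 months, 3 Abcb11-/- and 3 WT. The null Abcb11 allele of a lung therefore came from the mother in one cross and from the father in the other, and the arrays do not tell the maternal copy of any gene from the paternal copy. How many fetuses or pups went into each lung array was not given in the sources used here.

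In imprinted clusters, marks laid down in the germ line keep one parental copy silent. Igf2 is the fetal growth factor of the set and is expressed from the paternal copy, as are Dlk1, a transmembrane protein that restrains adipocyte differentiation, and the zinc finger genes Peg3 and Plagl1. The adaptor Grb10, which dampens insulin and IGF receptor signalling, the cyclin-dependent kinase inhibitor Cdkn1c and the long noncoding RNA Meg3 are expressed from the maternal copy in most tissues. Many imprinted growth genes are abundant in fetal organs and fade after birth.

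Promoter windows of 300 bases, with 250 before and 50 after the start site, were available from RefSeq (GRCm38.p6) for 6 of the 7 measured members, in 11 windows. The window with the most CpG dinucleotides is shown for Igf2 and Grb10, which declined with stage in the lung, and for the neighbours Dlk1 and Meg3 on chromosome 12, which were not called. Capitals mark TGCCGC read on either strand, the letters recognised by the imprint-keeping zinc finger protein ZFP57 when their CpG is methylated, so a reverse-strand match reads GCGGCA.
Igf2, chr7:142658755-142659054, minus strand: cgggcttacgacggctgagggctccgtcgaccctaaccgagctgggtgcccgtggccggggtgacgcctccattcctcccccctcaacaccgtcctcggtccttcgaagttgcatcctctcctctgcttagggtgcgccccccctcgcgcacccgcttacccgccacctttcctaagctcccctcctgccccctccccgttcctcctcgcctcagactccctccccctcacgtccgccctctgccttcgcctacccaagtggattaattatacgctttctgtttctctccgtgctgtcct
Grb10, chr11:12037371-12037670, minus strand: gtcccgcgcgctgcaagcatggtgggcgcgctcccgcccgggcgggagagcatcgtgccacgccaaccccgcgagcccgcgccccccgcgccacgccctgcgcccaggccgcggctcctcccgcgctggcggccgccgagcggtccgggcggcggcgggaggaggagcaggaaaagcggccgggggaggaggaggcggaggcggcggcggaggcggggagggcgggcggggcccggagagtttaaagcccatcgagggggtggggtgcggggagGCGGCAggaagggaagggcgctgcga
Dlk1, chr12:109452573-109452872, plus strand: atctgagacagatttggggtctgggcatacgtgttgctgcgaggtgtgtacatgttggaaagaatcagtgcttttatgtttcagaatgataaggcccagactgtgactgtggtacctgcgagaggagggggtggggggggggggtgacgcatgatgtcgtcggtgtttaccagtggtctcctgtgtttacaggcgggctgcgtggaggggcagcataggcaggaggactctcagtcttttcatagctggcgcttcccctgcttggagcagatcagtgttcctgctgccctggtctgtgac
Meg3, chr12:109540746-109541045, plus strand: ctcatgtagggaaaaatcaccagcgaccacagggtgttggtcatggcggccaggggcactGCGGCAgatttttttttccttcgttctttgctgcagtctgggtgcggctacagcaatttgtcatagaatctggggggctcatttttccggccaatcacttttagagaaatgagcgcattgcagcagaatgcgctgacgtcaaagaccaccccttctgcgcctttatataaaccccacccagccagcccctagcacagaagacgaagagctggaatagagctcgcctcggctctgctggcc
These windows held 24 CpG in Igf2, 45 in Grb10, 9 in Dlk1 and 13 in Meg3, beside a median of 7 over the 32851 windows of the table. TGCCGC occurred once each in the Grb10 and Meg3 windows shown and not in the Igf2 and Dlk1 windows shown. Over all 11 member windows 4 held it, in Igf2 (another start site), Meg3, Plagl1 and Grb10, beside 11.6% of all windows. The letters contain a CpG themselves, and these 4 windows held 14, 13, 26 and 45 CpG. The share over all windows, with their median of 7, is therefore no like comparison. Which start site was in use in these tissues was not measured.

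Values are log2 signals as deposited, and lung and liver had been scaled apart, so levels are compared within a tissue only. Tests were made with limma, a linear model per gene whose spread is moderated across genes, p-values were adjusted over all 17097 genes, and a gene was called at an adjusted p under 0.05. In counts over lists of genes, those said to have risen or fallen are the called ones. Abcb11 itself stood at 2.90, 3.14 and 3.26 in the Abcb11-/- livers, against 11.22, 11.04 and 10.88 in the WT livers, as the labels require. Among the 6 lung arrays, the Abcb11-/- mother's at E17.5 stood apart. The median of 11 measured hepatocyte markers was 10.17 there, against 4.67 for the WT mother at E17.5, and the median of 11 skeletal muscle markers was 8.19 against 3.44. Lung epithelium markers were high on all 6 lung arrays, with medians from 10.42 to 12.26, and hepatocyte markers were high in all 6 livers, with medians from 13.16 to 13.36. In whole tissue, fewer cells of a type and less RNA per cell cannot be told apart.

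Of the 7 members, Igf2 and Grb10 fell in the lung between E17.5 and PN0, Cdkn1c moved in the same direction without passing the test, and Dlk1, Meg3, Peg3 and Plagl1 did not pass it in either direction. Igf2 read 11.07 and 11.09 at E17.5, 10.30 and 10.33 at E18.5, and 10.07 and 9.82 at PN0, with the Abcb11-/- mother before the WT mother at each stage. On this probe set all E17.5 values lay above all E18.5 values, and these above all PN0 values. The second Igf2 probe set, dimmer at a lung mean of 5.45, read 6.37 and 6.78 at E17.5. It read 4.76 and 4.83 at E18.5 and 5.38 and 4.57 at PN0, so E18.5 and PN0 overlapped. By the brightest probe set, the level of Igf2 at PN0 was 0.455 times that at E17.5 (95% interval 0.355 to 0.582). The log2 change was -1.14 ± 0.14 (SE, 2 arrays per stage, limma, adjusted p = 0.021). Grb10 read 10.91 and 11.25 at E17.5, 10.60 and 10.53 at E18.5, and 10.29 and 10.003 at PN0, again without overlap between stages. The second Grb10 probe set, at a lung mean of 5.02, read 4.83 and 4.56 at E18.5 and 4.38 and 4.86 at PN0, which overlapped. The dimmest Grb10 probe set, at a mean of 4.60, had no overlap. By the brightest, the level of Grb10 at PN0 was 0.523 times that at E17.5 (0.383 to 0.714). The log2 change was -0.94 ± 0.18 (SE, limma, adjusted p = 0.045). Over all genes 5.9% were called between E17.5 and PN0, 2.83% as lower at PN0, so the members' count of 2 lower of 7 stands beside that share.

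Both calls depended on single arrays. The call on Igf2 was kept in 4 of 6 fits that left out 1 array and was lost without the E17.5 WT-mother array (adjusted p = 0.057) or the PN0 WT-mother array (adjusted p = 0.128, limma), with log2 changes of -1.28 to -0.998 over the 6 fits. The call on Grb10 was kept in 1 of 6, the fit without the E17.5 array that stood apart (log2 change -1.19, adjusted p = 0.023, limma), and the other 5 gave adjusted p-values of 0.065 to 0.249. Without that array the log2 change of Igf2 was -1.20 (limma, adjusted p = 0.024).

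Cdkn1c read 11.02 and 11.12 at E17.5, 10.55 and 10.76 at E18.5, and 10.44 and 10.24 at PN0, so its stages did not overlap either. The log2 change from E17.5 to PN0 was -0.73 ± 0.16 (SE, limma, adjusted p = 0.055), a level 0.605 times that at E17.5 (0.464 to 0.789). By the brightest probe set, Igf2, Grb10 and Cdkn1c were the 3 of 7 members whose arrays stepped down at both stages without overlap. So did 7.28% of all genes, and 12.7% of the 5187 genes with a mean of 7 or more.

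**Figure D1:**
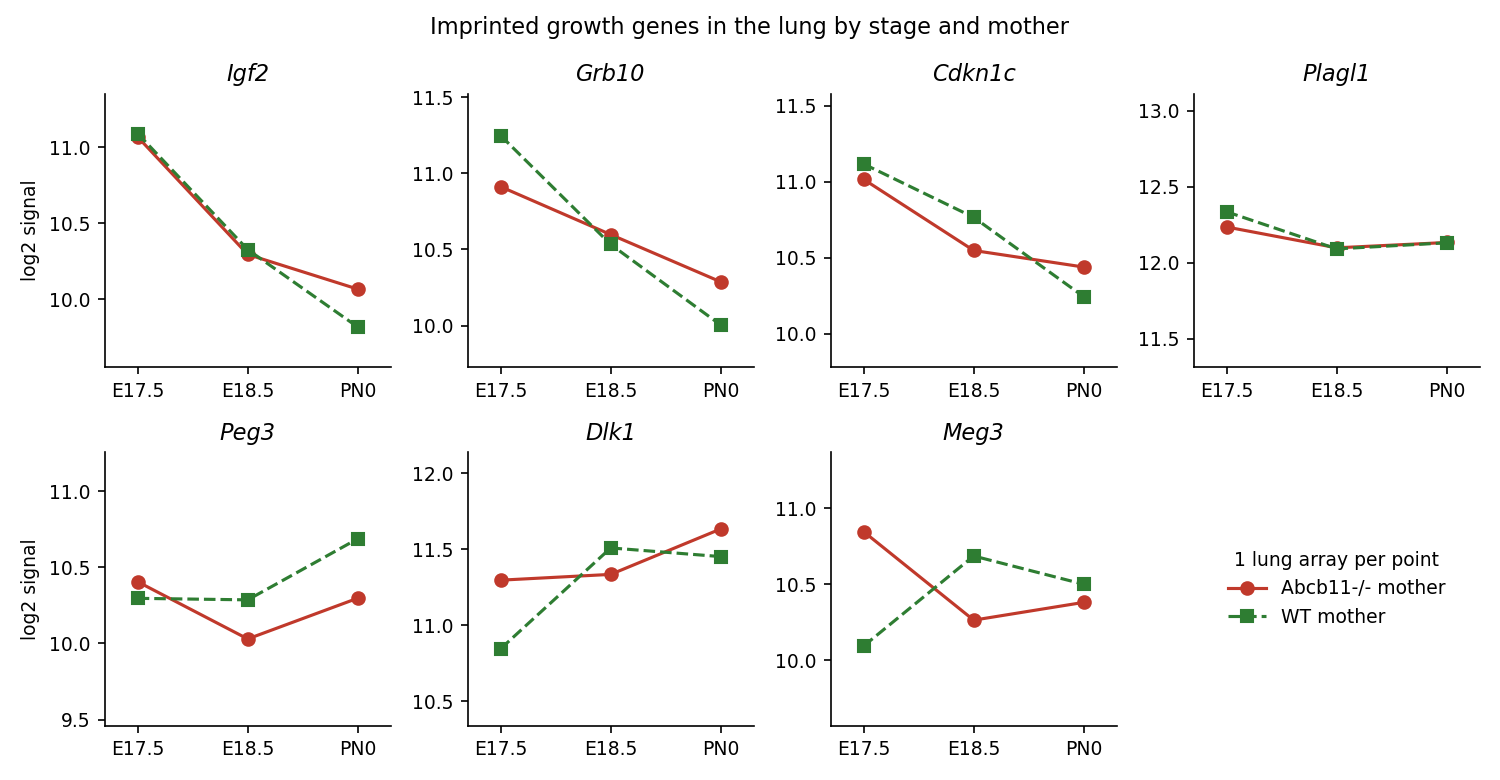
Log2 signal (y axis) of the 7 measured members on the 6 lung arrays by stage (x axis), red circles for the Abcb11-/- mother and green squares for the WT mother, 1 array per point, all panels with the same span. Igf2, Grb10 and Cdkn1c step down at each stage on arrays of both mothers, Plagl1 stays between 12.09 and 12.34, and the Meg3 lines cross.

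The other 4 members followed no common course. Dlk1 read 11.30 and 10.85 at E17.5, 11.34 and 11.51 at E18.5, and 11.63 and 11.45 at PN0, and its log2 change from E17.5 to PN0 was 0.47 ± 0.18 (SE, limma, adjusted p = 0.185). The lowest of its 6 values was that of the E17.5 WT-mother array. Peg3 read 10.41 and 10.30 at E17.5, 10.03 and 10.29 at E18.5, and 10.30 and 10.69 at PN0, and the stages overlapped. Plagl1 was the steadiest of the 7, with a range of 0.24 over the 6 arrays and a change of -0.15 from E17.5 to PN0 (95% interval -0.47 to 0.17). Meg3, the noncoding partner of Dlk1, read 10.84 and 10.09 at E17.5, 10.26 and 10.68 at E18.5, and 10.38 and 10.50 at PN0, so that the array of one mother was the highest of all 6 and that of the other the lowest at the same stage. By the brightest probe set its change from E17.5 to PN0 was -0.03 with an interval from -0.73 to 0.67. The next Meg3 probe sets, at lung means of 10.38, 9.14 and 8.76, changed by 0.45, -0.18 and 0.68. The stage change of Meg3 thus depended on the probe set.

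Neither single step carried a call on a member. From E17.5 to E18.5, 10 genes (0.0585%) were called and none was a member: the log2 changes were -0.77 for Igf2 (limma, adjusted p = 0.141), -0.52 for Grb10 and -0.41 for Cdkn1c. From E18.5 to PN0 no gene was called (0%), while 2098 had an unadjusted p under 0.05 in limma, among them Igf2 with a change of -0.37 (limma, adjusted p = 0.395). Grb10 changed by -0.42 and Cdkn1c by -0.32 in that step, with intervals that included 0. A called decline of Igf2 at the first step appeared only with a trended and robust prior (adjusted p = 0.020, limma).

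**Figure D2:**
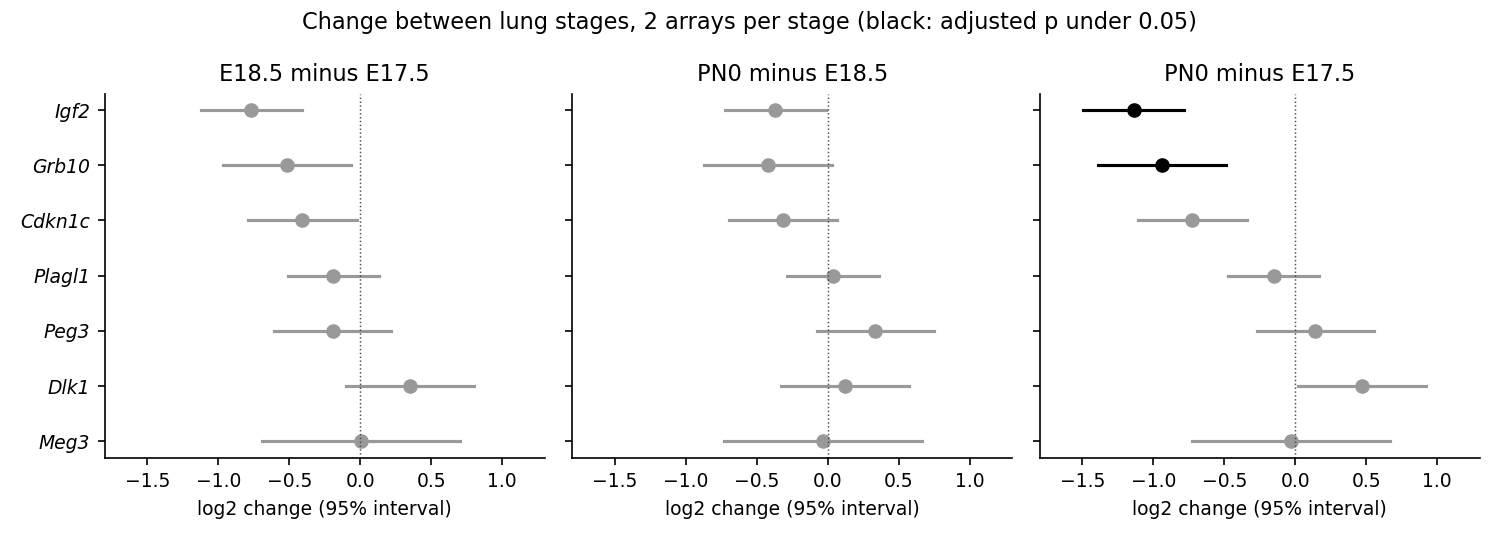
Log2 change (x axis) of each member (rows) between lung stages, with the mother as a term, points for the estimate and bars for its 95% interval, 2 arrays per stage. Igf2 and Grb10 in the comparison of PN0 with E17.5, drawn in black, are the members that passed an adjusted p of 0.05.

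The genes whose course over the 6 lung arrays was closest to that of Igf2 were sought among the 5187 genes with a mean log2 value of 7 or more, by the root mean square difference of values centred on each gene's mean. Dzip3 (0.046), Rif1 (0.088), a telomere and replication timing protein, and Pcbd1 (0.089), a dehydratase of the tetrahydrobiopterin cycle, came first. Among the members Grb10 ranked 14 (0.145) and Cdkn1c ranked 60 (0.192), while Plagl1 ranked 1547, Meg3 3339, Peg3 3598 and Dlk1 4503. Proliferation genes moved with the same stages: all 9 measured cell cycle markers were called lower at PN0 than at E17.5, with a median change of -1.84, and their medians on the 6 arrays were 8.34 and 8.98 at E17.5, 7.49 and 7.57 at E18.5, and 7.31 and 7.10 at PN0, Abcb11-/- mother first. Their part in the decline of Igf2, Grb10 and Cdkn1c was not tested.

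Of 60 listed imprinted genes outside the growth set, 46 were measured, and between E17.5 and PN0 none was called lower. Like Cdkn1c, Ube3a stepped down without overlap between stages and just missed the test (log2 change -0.63 ± 0.13, SE, limma, adjusted p = 0.054). It read 9.59 and 9.63 at E17.5, 9.33 and 9.41 at E18.5, and 9.02 and 8.94 at PN0. Rasgrf1, a paternally expressed exchange factor for Ras, was the 1 gene called, as higher (log2 change 1.02 ± 0.19, SE, limma, adjusted p = 0.041). Rasgrf1 was dim, from 4.54 to 5.72, and its call was kept in 1 of 6 fits that left out an array. The median change of the 46 was -0.11 and that of the 7 members -0.15, beside 0.00 for all genes.

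Of 25 measured IGF ligands, receptors and binding partners, 2 rose and 1 fell between E17.5 and PN0, beside 3.06% and 2.83% of all genes. Igfbp3, the main carrier of IGFs in plasma, read 6.55 and 5.95 at E17.5, 7.97 and 8.14 at E18.5, and 8.996 and 9.57 at PN0 (change 3.03 ± 0.28, SE, limma, adjusted p = 0.013). Igfbp2, a fetal carrier, read 8.73 and 8.97 at E17.5, 7.19 and 7.01 at E18.5, and 6.81 and 6.54 at PN0 (change -2.18 ± 0.17, SE, limma, adjusted p = 0.0097). For both genes the stages did not overlap, and the call was kept in 5 of 6 fits that left out an array. Stc1, an inhibitor of the pappalysin that cleaves IGF binding proteins, rose by 0.87 (limma, adjusted p = 0.032), a call lost when any 1 array was left out. The ligand Igf1 was at 9.57 and 10.19 at E17.5 and 9.20 and 8.84 at PN0 and was not called.

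Of 17 measured late fetal growth regulators, 1 rose and 5 fell, beside 3.06% and 2.83% of all genes. Like the other lists, this one was chosen with earlier results of these data known, so its count is no independent result. Cdkn1a, a cyclin-dependent kinase inhibitor of the same family as Cdkn1c that is not imprinted, read 7.05 and 6.80 at E17.5, 7.498 and 7.87 at E18.5, and 9.58 and 9.46 at PN0 (change 2.59 ± 0.19, SE, limma, adjusted p = 0.0090). It rose where Cdkn1c had its lowest values. The transcription factors Mycn (-2.04) and E2f8 (-1.67) and the Polycomb methyltransferase Ezh2 (-1.15) fell, as did E2f3 and Sox11. When each array was left out in turn, the calls were kept in 5 of 6 fits for Cdkn1a and E2f8, 4 of 6 for Mycn, 1 of 6 for Ezh2 and E2f3 and 0 of 6 for Sox11. Of 11 measured genes of the imprinting machinery, the maintenance methyltransferase Dnmt1 (-1.18, limma, adjusted p = 0.026) and its partner Uhrf1 (-1.93, limma, adjusted p = 0.0499) fell, and none rose. Dnmt1 kept its call in 3 of 6 fits that left out an array and Uhrf1 in 2 of 6.

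The lung arrays were made to ask what a cholestatic mother changes in the lungs of her offspring. No member was called for the mother over the 3 stages. Over all genes 0% were called for the mother (0 of 17097 in limma, 867 with an unadjusted p under 0.05, and 1 gene with a trended and robust prior). The members' log2 differences, Abcb11-/- minus WT mother, ran from -0.18 for Peg3 to 0.15 for Dlk1, with adjusted p-values from 0.947 to 0.999 (limma). By the 95% intervals, the lungs of Abcb11-/- mothers held 0.855 to 1.28 times the Igf2 signal of those of WT mothers, 0.777 to 1.29 times for Grb10, 0.782 to 1.21 times for Cdkn1c and 0.707 to 1.56 times for Meg3. For Meg3 the difference was 0.07 over all 3 stages and -0.27 without the E17.5 array that stood apart (limma, adjusted p = 0.985 and 0.818). None of the 7 members had a difference of one sign at all 3 stages, which 25.9% of all genes had.

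At single stages 1 array stood against 1, so differences are given without a test and counted as apart from 1.5-fold. At E17.5, 1 of 7 members was apart, beside 7.02% of all genes: Meg3 was at 10.84 with the Abcb11-/- mother, against 10.09 with the WT mother, a difference of 0.75. By the probe sets used, no member was apart at E18.5 (3.39% of all genes) or at PN0 (7.04%). The difference of Meg3 was -0.42 and -0.12 at these stages. Other probe sets did pass 1.5-fold. The second-brightest of Igf2, at a lung mean of 5.45, differed by 0.81 at PN0. That of Grb10, at a mean of 5.02, differed by -0.72 at E17.5. Meg3 had 10 probe sets, and the 4 with the highest lung means behaved alike at each stage: at E17.5 they gave differences of 0.75, 1.05, 0.88 and 1.02, and at E18.5 of -0.42, -0.47, -0.41 and -0.42. Dimmer Meg3 probe sets also passed 1.5-fold and did not agree at PN0. That at a lung mean of 4.73 differed by 0.67, -0.64 and 1.12 at E17.5, E18.5 and PN0. That at 4.44 differed by 0.84, -1.04 and 0.41, and that at 3.56 by -0.61 at PN0. Rian, a noncoding RNA of the same cluster, differed by 0.54, 0.14 and 0.58 at E17.5, E18.5 and PN0, and Dlk1 by 0.45, -0.17 and 0.18.

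The E17.5 array with the high Meg3 value was the one that stood apart. On it 10 of 11 hepatocyte markers and 10 of 11 skeletal muscle markers were at least 1.5-fold above the WT-mother array, with median differences of 5.28 and 4.22, while 7 of 9 heart muscle markers (median -0.81), 4 of 5 smooth muscle markers (-1.22) and 5 of 9 cell cycle markers (-0.63) were at least 1.5-fold below it. Of 8 measured lung epithelium markers, 3 were at least 1.5-fold above it and none below, with a median difference of 0.20. The linear sum over the 11 hepatocyte markers was 24251 there, against 1950 on the WT-mother array. The part of these in the Meg3 value was not tested. Igf2 was at 11.07 on that array, against 11.09 with the WT mother.

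**Figure D3:**
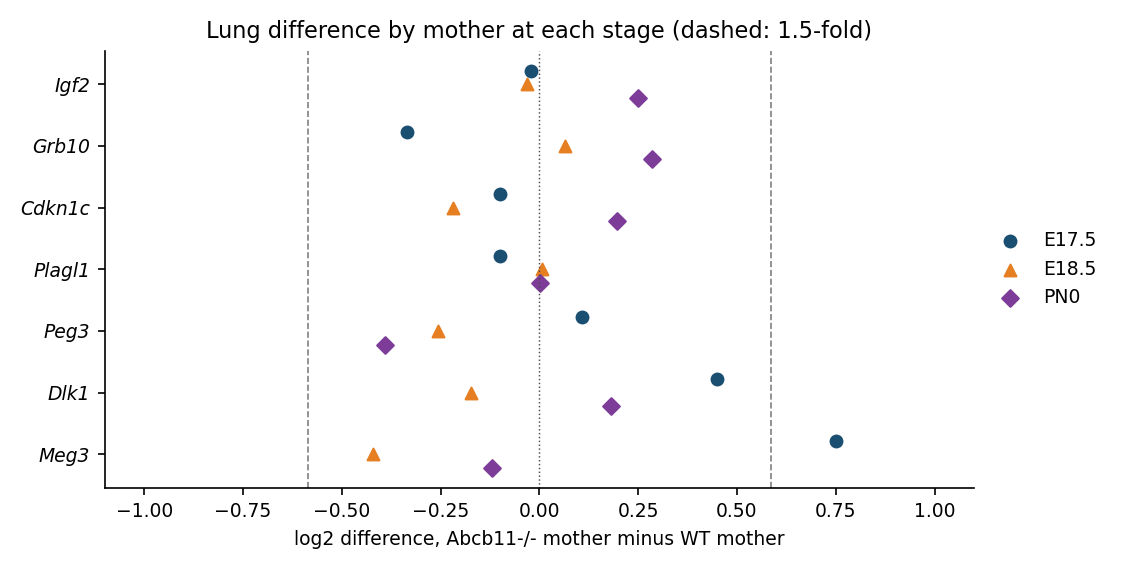
Log2 difference in lung signal (x axis), Abcb11-/- mother minus WT mother, of each member (rows) at E17.5 (circles), E18.5 (triangles) and PN0 (diamonds), 1 array against 1, with dashed lines at 1.5-fold. The one point past a line is Meg3 at E17.5, at 0.75.

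At PN0 Igf2 was at 10.07 with the Abcb11-/- mother, against 9.82 with the WT mother, and Grb10 at 10.29 against 10.003 and Cdkn1c at 10.44 against 10.24. On these probe sets the 3 members were each a little higher with the Abcb11-/- mother, by 0.25, 0.28 and 0.20, and each below 1.5-fold. The second-brightest probe set gave 0.81 for Igf2, past 1.5-fold, and -0.48 for Grb10, the other direction. From E17.5 to PN0 Igf2 changed by -1.001 in lungs of Abcb11-/- mothers and by -1.27 in lungs of WT mothers, Grb10 by -0.63 and -1.25, and Cdkn1c by -0.58 and -0.87. Whether these declines differed between mothers was not tested, since each is a difference of single arrays. On the PN0 arrays 5 of 9 heart muscle markers were at least 1.5-fold higher with the Abcb11-/- mother, with a median difference of 0.84. Of 8 fibroblast markers 2 were higher by that much and 0 lower, with a median difference of 0.34. The part of these in the members' differences was not tested.

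Among the 46 other imprinted genes, 1 was higher and 1 lower by at least 1.5-fold with the Abcb11-/- mother at E17.5. None was apart at E18.5, and 5 were higher and none lower at PN0. Of all genes, 7.02%, 3.39% and 7.04% were apart at these stages. At E17.5 the listed genes apart were Kcnq1ot1 (6.93 against 5.91), the noncoding RNA of the cluster that holds Cdkn1c, and Snurf (3.56 against 4.26). Snurf was dim, from 3.20 to 4.26 over the 6 lung arrays. At PN0 the genes apart included Mirg, a noncoding RNA downstream of Meg3 (5.88 against 4.01), Dcn (8.74 against 7.37), Ddc (6.63 against 5.50) and Snurf (3.92 against 3.20). Dcn encodes decorin and is also one of the fibroblast markers above. In the IGF list 3 genes were higher and 1 lower at E17.5, with Igfbp1, which hepatocytes secrete, at 9.05 against 4.42, none was apart at E18.5, and at PN0 1 was higher and 2 were lower. In the late fetal growth list the counts were 0 higher and 2 lower at E17.5, 0 at E18.5, and 1 higher and 0 lower at PN0.

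In the adult liver none of the 7 members passed the test, against 7.24% of all genes (4.33% higher and 2.91% lower in Abcb11-/- livers). Igf2 stood at 3.66, 3.46 and 3.71 in Abcb11-/- livers, against 3.44, 3.32 and 3.57 in WT livers, so the groups overlapped. Its difference was 0.17 ± 0.11 (SE, n = 3 each, limma, adjusted p = 0.446), and its mean lay 0.36 above the array median of all probe sets. Dlk1 stood at 3.51, 3.65 and 3.54 in Abcb11-/- livers, against 3.59, 3.63 and 3.68 in WT livers, and its mean lay 0.43 above that median. The values carry no detection call. Meg3 was as dim, at 3.49, 3.68 and 3.59 in Abcb11-/- livers and 3.70, 3.88 and 4.14 in WT livers, a difference of -0.32 (limma, adjusted p = 0.195).

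Cdkn1c, further above the array median, did not overlap between genotypes. It stood at 6.12, 5.25 and 5.57 in Abcb11-/- livers (mean 5.65 ± 0.44, SD, n = 3), against 5.22, 4.36 and 4.83 in WT livers (4.80 ± 0.43). The lowest Abcb11-/- value lay just above the highest WT value. The difference was 0.84 ± 0.27 (SE), 1.79-fold with a 95% interval of 1.16 to 2.77, and the adjusted p was 0.114 (limma). Cdkn1c and Meg3 were the 2 of 7 members without overlap between genotypes, and 26% of all genes had none. A two-sided exact permutation test of 3 against 3 gave p = 0.1 for each, the smallest it can give. For Meg3 this depended on the probe set. The next-brightest Meg3 probe set in liver differed by -0.34 and the one used in lung by -0.08, and both overlapped between genotypes.

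Plagl1 stood at 7.69, 6.25 and 7.74 in Abcb11-/- livers, against 6.34, 6.15 and 6.63 in WT livers. Replicates 1 and 3 of the Abcb11-/- livers lay above every WT liver and replicate 2 among them. The difference was 0.85 ± 0.38 (SE, limma, adjusted p = 0.246), so Plagl1 was not called. Without replicate 2 the difference was 1.34. That replicate was picked because of its low value, so leaving it out had to widen the difference, and no test is read from it. The second Plagl1 probe set differed by -0.14, at a mean of 2.70 that lay below the median of every liver array (3.15 to 3.18). Grb10 stood at 6.73, 4.50 and 4.84 in Abcb11-/- livers, against 5.33, 4.61 and 4.70 in WT livers, and Peg3 at 4.79, 3.24 and 3.61, against 3.91, 3.63 and 3.39. For both genes Abcb11-/- replicate 1 was the highest of the 6 livers and Abcb11-/- replicate 2 the lowest. Their differences were 0.48 ± 0.54 and 0.24 ± 0.37 (SE, limma, adjusted p = 0.691 and 0.787).

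**Figure D4:**
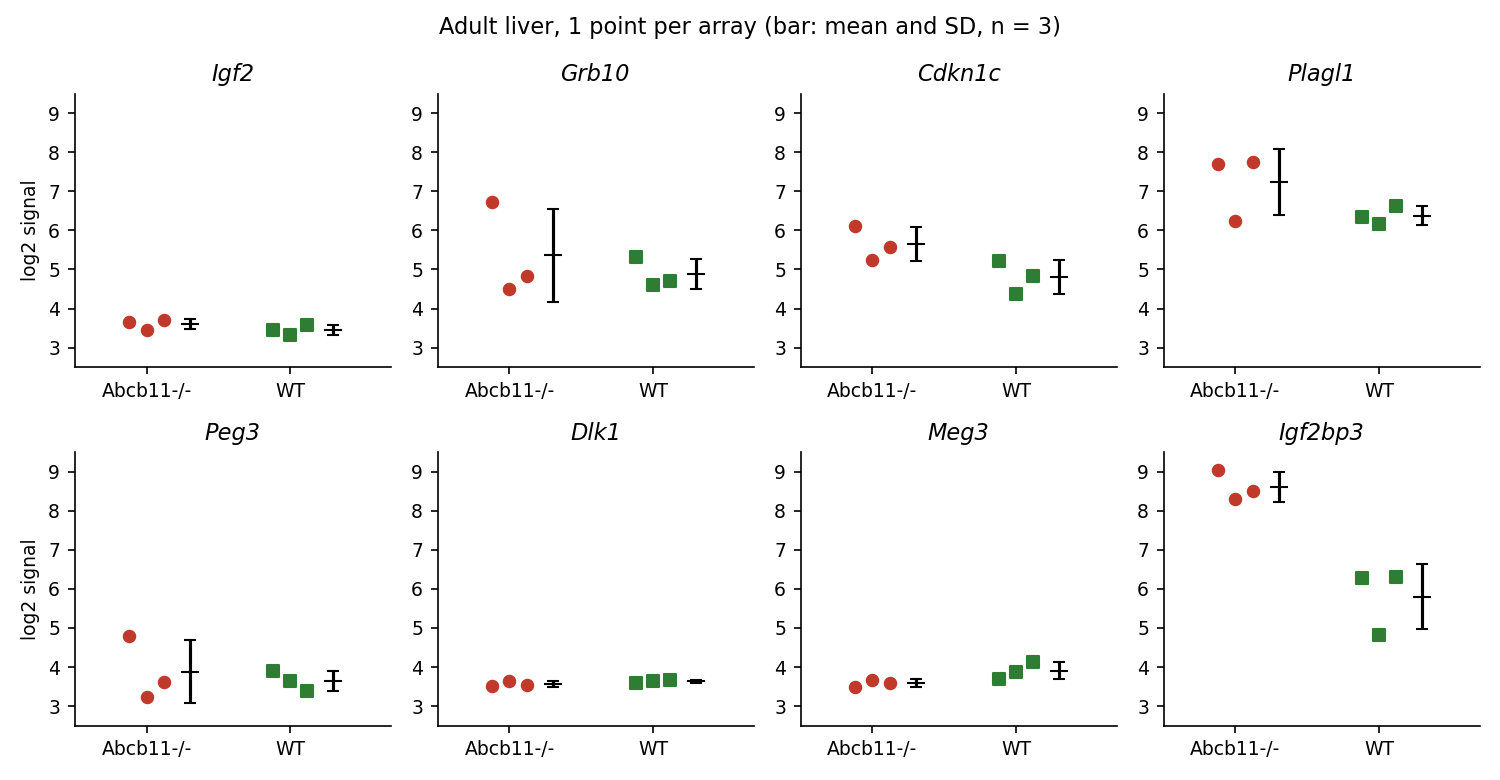
Log2 signal (y axis) in each adult liver, Abcb11-/- (red circles) left of WT (green squares), with the mean and SD (n = 3) beside the points, for the 7 members and Igf2bp3. Igf2, Dlk1 and Meg3 lie between 3.32 and 4.14 in all 6 livers, Cdkn1c and Igf2bp3 do not overlap between genotypes with Igf2bp3 the wider apart, and 1 Abcb11-/- liver leads in Grb10 and Peg3.

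Abcb11-/- replicate 1 was the highest of the 6 livers for 3 of the 7 members (Peg3, Cdkn1c and Grb10), as it was for 21.5% of all genes. The median of 9 measured cell cycle markers was 6.77, 4.10 and 4.37 in the Abcb11-/- livers, against 4.84, 3.62 and 4.17 in the WT livers, so this liver also led there. That of 7 cholangiocyte markers was 4.15, 3.58 and 3.66 in Abcb11-/- livers, against 3.15, 3.25 and 3.24 in WT livers, with Epcam and Sox9 called higher. Without replicate 1 the difference of Cdkn1c was 0.61 (limma, adjusted p = 0.201), that of Grb10 was -0.21 and that of Peg3 was -0.22. The part of proliferating or bile duct cells in these values was not tested.

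Igf2bp3, an oncofetal protein that binds Igf2 mRNA, was at 9.04, 8.30 and 8.49 in Abcb11-/- livers, against 6.28, 4.83 and 6.30 in WT livers, a difference of 2.81 ± 0.40 (SE, limma, adjusted p = 0.0075) that stayed called in 6 of 6 fits leaving out 1 liver. In the IGF list of 25 it was the 1 gene that rose, while Igfbp4 (-0.45, limma, adjusted p = 0.034) and Pik3r1, the regulatory subunit of PI3-kinase (-0.92, limma, adjusted p = 0.023), fell, calls that were kept in 1 of 6 such fits for Igfbp4 and 2 of 6 for Pik3r1. Igf1, the postnatal ligand made by the liver, was at 11.40, 11.92 and 11.73 in Abcb11-/- livers and 12.04, 11.91 and 11.95 in WT livers and was not called.

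Of 46 measured imprinted genes outside the growth set, 3 rose in Abcb11-/- livers and none fell, beside 4.33% of all genes that rose, with a median difference of -0.02 over the list. By gene order on chromosome 7 (GRCm38.p6) the next protein-coding genes after Cdkn1c are Slc22a18 and Phlda2, and both were among the 3. Slc22a18, a putative organic cation transporter, stood at 10.22, 10.15 and 9.94 in Abcb11-/- livers, against 9.53, 9.36 and 9.57 in WT livers (difference 0.62 ± 0.11, SE, limma, adjusted p = 0.016). Phlda2, which restrains placental growth, stood at 6.75, 4.17 and 6.52 in Abcb11-/- livers, against 3.36, 3.28 and 3.16 in WT livers (2.55 ± 0.61, SE, limma, adjusted p = 0.048). Neither overlapped between genotypes, though Phlda2 was low in the same replicate 2 as Plagl1, and its call was kept in 1 of 6 fits that left out a liver, against 4 of 6 for Slc22a18. The other measured genes of the list nearby were not called: Kcnq1 (-0.04), Tssc4 (-0.04) and Cd81 (-0.08) on the other side of Cdkn1c, and Nap1l4 (0.05), next after Phlda2. The third gene was Ddc, aromatic L-amino acid decarboxylase and the neighbour of Grb10, at 9.66, 10.36 and 10.07 in Abcb11-/- livers, against 8.41, 8.40 and 7.64 in WT livers (1.88 ± 0.25, SE, limma, adjusted p = 0.0058).

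Of 12 measured oncofetal liver genes, 5 rose and none fell in Abcb11-/- livers, beside 4.33% of all genes that rose. Their median difference was 1.16 beside 0.00 for all genes. The list was chosen with earlier results of these data known, so its count is no independent result. This list shares Igf2bp3 with the IGF list and Sox4 with the late fetal growth list. Sox4, a progenitor transcription factor, was at 9.09, 7.52 and 8.76 in Abcb11-/- livers, against 5.41, 5.73 and 5.80 in WT livers (2.81 ± 0.37, SE, limma, adjusted p = 0.0056). The surface glycoprotein Cd24a (1.81) and lipoprotein lipase Lpl (2.14) also rose, and the fifth was Elf3. Elf3 kept its call in 2 of 6 fits that left out a liver, and the other 4 genes kept theirs in all 6. Afp, alpha-fetoprotein, was at 7.67, 4.87 and 7.41 in Abcb11-/- livers, against 4.45, 4.85 and 5.44 in WT livers, and was not called (limma, adjusted p = 0.195). In the late fetal growth list Sox4 was the 1 called gene of 17. In the imprinting machinery the de novo methyltransferase Dnmt3b was the 1 called gene of 11, at 4.96, 4.71 and 5.71 in Abcb11-/- livers, against 3.65, 3.48 and 3.56 in WT livers (1.56 ± 0.23, SE, limma, adjusted p = 0.0091).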

How the data were processed

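Gene expression was measured on 12 Affymetrix arrays, 6 of lung and 6 of liver. The authors deposited log2 signals per probe set, and the submitters' processing notes name RMA and Partek 6.5. Background correction and summarisation by RMA compress differences between dim values. Lung and liver had been scaled apart, and the genome build was not given in the sources used here.

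Of 45037 probe sets, 28898 were paired with 1 gene by the platform annotation, 551 with several and 15588 with none, and only the first were used for genes. The brightest probe set of a gene in each tissue stood for it, which gave 17097 genes. Stage and mother were fitted together on the 6 lung arrays (2 residual degrees of freedom), and genotype on the 6 livers, with limma 3.58.1 in R 4.3.3 and Benjamini-Hochberg adjustment over all genes. A gene was called at an adjusted p under 0.05. The number of arrays limits the precision. The labels name a replicate for each liver but no separate culture or litter, so liver p-values measure the spread between the liver arrays. The lung had 1 array per stage and mother and no replicate. Lung p-values and intervals therefore rest on what the stage and mother terms leave unexplained. That remainder includes any difference by mother that changes with stage, and the E17.5 array that stood apart. The scripts were tested on simulated data. Alternatives covered the choice of probe set, scaling, a filter on low values, the prior, the mother term and leaving out each array.

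The members and lists were chosen with earlier results of these data known, so no count over them is an independent result. All members were named in each comparison. Of each list, up to 4 called genes with the largest change were named, and for Igf2 the 3 genes closest in course. The same search for H19 could not be run. Igf1, Afp, Rian, Ube3a, Kcnq1, Tssc4, Cd81, Nap1l4, E2f3, Sox11 and Elf3 were named after their values were seen. One deposited column was used per array and none was left over.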

Additional observations from a re-analysis of the deposited data

Results flagged for a closer look

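Meg3 differed by mother in opposite directions at different lung stages. The difference, Abcb11-/- minus WT mother, was 0.75 at E17.5, -0.42 at E18.5 and -0.12 at PN0. Each is 1 array against 1, and the change of direction was not tested.

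Among the 15588 probe sets that the platform annotation leaves without a gene name, the one with the largest liver difference was 1448194_PM_a_at. It stood at 12.47, 8.88 and 11.11 in Abcb11-/- livers, against 4.18, 3.50 and 4.13 in WT livers, a difference of 6.88 (limma, adjusted p = 0.0027). Which gene it measures was not given in the annotation used here, and the annotation names no probe set for H19, so whether this one measures a growth gene without a value in the liver comparison is not known. The unnamed probe sets were not part of any gene comparison, and 162 of them were called higher and 161 lower in Abcb11-/- livers.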

How the results depend on the processing

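With 2 arrays per lung stage and 3 livers per genotype, counts of called genes moved with the processing and the cause was not tested. From E17.5 to E18.5, 9 genes rose and 1 fell. With a mean of 6 or more 36 rose and 9 fell, with a trended and robust prior 130 and 67, with quantile normalization 0 and 0, and 0 fell with the mean of all probe sets. Leaving out each array gave 0 to 134 higher and 0 to 173 lower. From E18.5 to PN0, 0 were called, against 13 higher and 5 lower with the filter, 12 and 2 with the mean of all probe sets, 14 and 4 with no term for the mother, and 62 and 25 with the trended prior. Leaving out each array gave 0 to 24 and 0 to 11. From E17.5 to PN0 the counts of 524 higher and 484 lower became 884 and 899 with the trended prior, and 23 to 552 and 3 to 732 when arrays were left out. The low ends came without the PN0 WT-mother array. For the mother over the 3 stages, 1 gene was higher with the filter or the trended prior.

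In liver, 740 higher and 498 lower became 315 to 888 and 177 to 621 when arrays were left out. The replicate numbers did not pair the livers: deviations of livers with the same number correlated at -0.17, -0.15 and -0.24, and 0 of 6 livers correlated best with its own number. With the replicate number as a block 429 genes were higher and 242 lower, Cdkn1c was called (adjusted p = 0.020, limma) and no other member was.

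Of 603 member values under alternatives, 586 kept their side of the threshold and, where called, their direction. Cdkn1c was called lower at PN0 than at E17.5 with the filter (adjusted p = 0.026), no mother term (0.036) and the trended prior (0.0063, all limma). At 2-fold 0 members were apart at E17.5. The second-brightest probe set was an alternative chosen after seeing the data, and its values are given with no test. It turned the liver difference of Plagl1 to -0.14, that of Peg3 to -0.10 and that of Grb10 to -0.06. In the lung it put the difference by mother past 1.5-fold for Igf2 at PN0 (0.81) and Grb10 at E17.5 (-0.72). Among the 586, 43 values below the threshold changed sign.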
